A study of Mus musculus with 18 samples.

Results

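Gem, Csrnp1, Ier2, Ier3, Ier5, Btg2, Zfp36, Klf2, Klf4 and Klf6 are immediate-early response genes outside the AP-1 and EGR transcription factor families. These 10 genes, of 21831 in the count table, were picked by symbol with earlier results of these data known. Gem and Csrnp1 were picked because PCN had raised them in these libraries, and the other 8 for their class. All 10 passed the filter on low counts, which left 13409 genes for testing. The levels and fold changes of Gem and Csrnp1 are therefore a description in every comparison and carry no test.

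RNA was sequenced from peritoneal macrophages of C57BL/6 mice that were 6 weeks old. The mice had received 3% thioglycollate (1 mL), an irritant that recruits macrophages, 3 days before collection, and the cells attached for 4 h before 12 h with 20 µM PCN (pregnenolone 16α-carbonitrile, an activator of mouse PXR) or the solvent DMSO. In the genotype called dMye here myeloid cells lack PXR, a nuclear receptor for steroids and foreign chemicals, and in the genotype called FF the PXR alleles are floxed. The groups were dMye_PCN (6 libraries), dMye_DMSO (6), FF_PCN (3) and FF_DMSO (3), and the replicate numbers used here only name libraries. The labels name no Cre driver. They also leave unsaid whether each library is its own animal or culture, so a p-value here weighs library-to-library spread, part of which could be technical.

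Immediate-early genes are transcribed soon after a stimulus by factors already present in the cell, such as SRF with its ternary complex partners, CREB and NF-kB, without new protein synthesis. Many of their mRNAs are short-lived, because AU-rich stretches in the 3′ UTR are bound by decay factors such as ZFP36 (tristetraprolin), itself an immediate-early product. In macrophages the class is known for its response to bacterial products, growth factors, stress and adhesion, and its members range from transcription factors to regulators of mRNA decay, survival and the cytoskeleton. All libraries here were taken at 12 h, so the levels do not show the first hours after PCN.

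The libraries held between 21993687 and 30228032 expected counts. Nr1i2, the PXR gene, had 3 counts in all dMye_PCN libraries together, 2 in dMye_DMSO, 1 in FF_PCN and 2 in FF_DMSO, so the deletion could not be checked at this depth. All 10 macrophage markers were above 1 CPM (counts per 1000000 of the library total) in the median of every group. The Y-linked gene Ddx3y was at most 0.475 CPM in dMye libraries and between 43.7 and 62.7 CPM in FF libraries, so sex followed genotype and the contributions of sex and genotype cannot be told apart. In bulk RNA, fewer cells of a type and less RNA per cell cannot be told apart either.

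After PCN, Klf6 was higher and Klf2 lower in both genotypes, and Ier3 and Ier5 were higher and Ier2 lower in FF macrophages. In dMye macrophages 2 of the 8 tested genes passed the threshold (edgeR quasi-likelihood test, Benjamini-Hochberg adjusted p under 0.05 over all genes tested), 1 higher and 1 lower, where 2.08% of all genes tested passed. In FF macrophages 5 of the 8 passed, 3 higher and 2 lower, where 13.8% of all genes passed. Klf4, Zfp36 and Btg2 passed in neither genotype. Gem and Csrnp1, chosen for their rise, had the largest fold changes of the 10 in both genotypes.

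**Figure D1:**
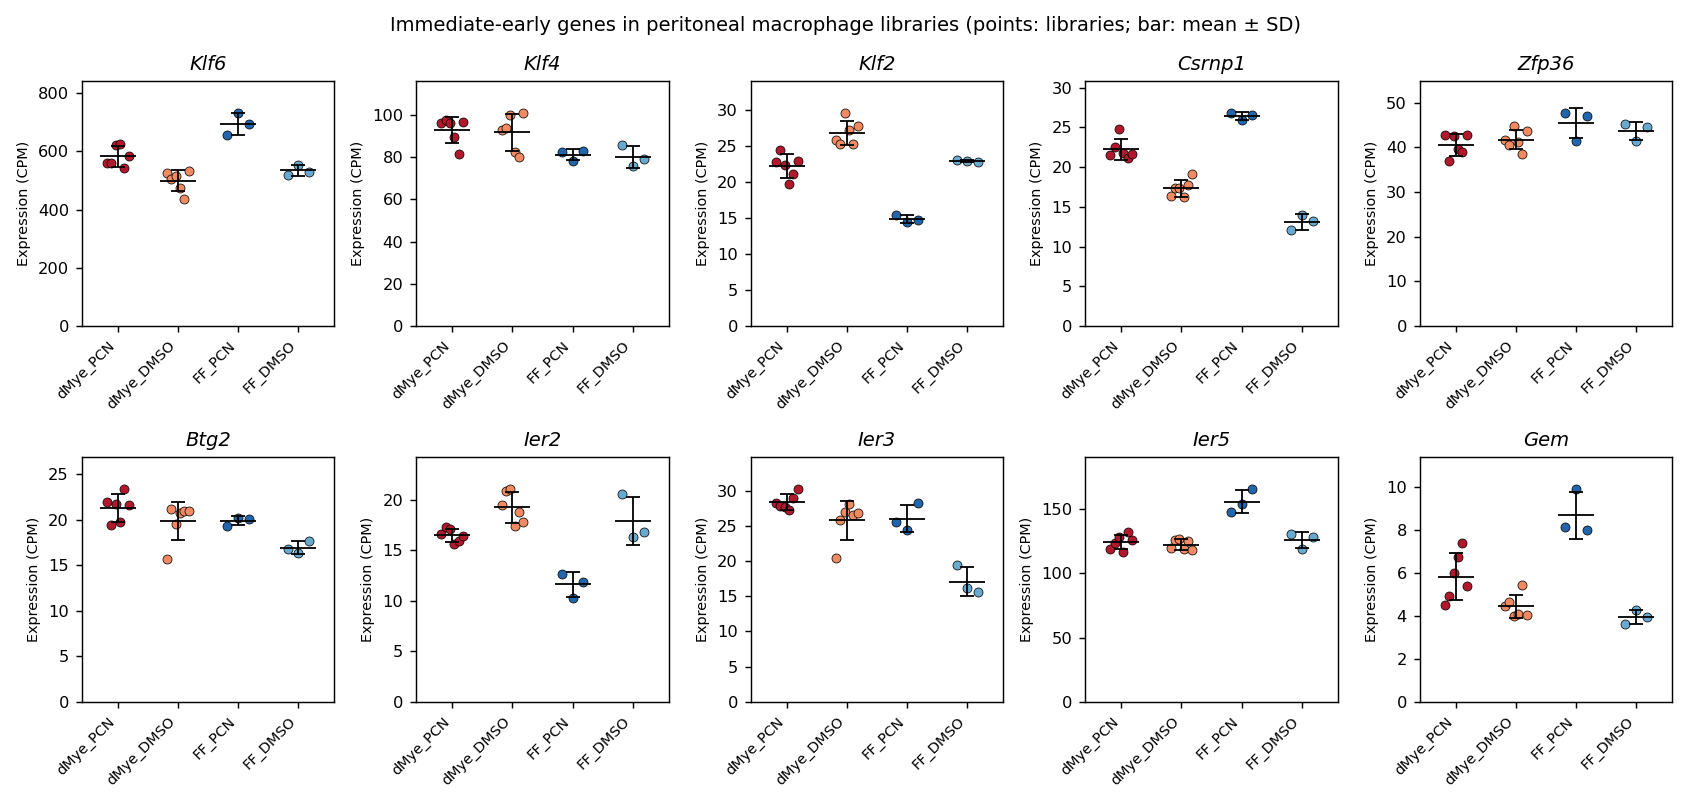
Expression of the 10 genes in CPM (y axis from 0) in each library of dMye_PCN, dMye_DMSO, FF_PCN and FF_DMSO, with 1 point per library and a bar for the mean ± SD. FF_PCN lies above every other group for Csrnp1, Ier5, Gem and Klf6 and below every other group for Klf2 and Ier2, while the groups overlap for Klf4 and Zfp36.

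Per kilobase of annotated exon, Klf6 was the most abundant of the 10 in every group, with means of 133 CPM per kb in dMye_PCN, 114 in dMye_DMSO, 158 in FF_PCN and 122 in FF_DMSO. Ier5 was next, between 37.4 and 47.6 CPM per kb over the group means, followed by Klf4 between 26.3 and 30.5. Gem was the least abundant in every group, with means of 2.77 CPM per kb in dMye_PCN, 2.11 in dMye_DMSO, 4.12 in FF_PCN and 1.87 in FF_DMSO. The remaining genes lay between these, Ier3 in the fourth place in every group. Such levels depend on the exon length assigned to each gene, here the union of all annotated transcripts in GENCODE M21.

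The Krüppel-like factors are zinc finger transcription factors that bind GC-rich DNA. Klf6 (chr13:5861482-5870394, GRCm38, + strand), widely expressed and known in macrophages as a promoter of inflammatory gene expression, was the member with the most reads. It had a lowest value of 543 CPM, a median of 573 and a highest value of 627 in dMye_PCN, against 438, 511 and 534 in dMye_DMSO. In FF the libraries read 658, 732 and 695 CPM with PCN, against 519, 555 and 531 with DMSO. In each genotype every PCN library was above every DMSO library. The log2 fold change was 0.22 ± 0.05 in dMye (SE, adjusted p = 0.011) and 0.40 ± 0.06 in FF (adjusted p = 0.00015). The difference between these effects was -0.18 ± 0.08 and did not pass (adjusted p = 0.33), with a 95% interval from -0.34 to -0.02.

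Klf2 (chr8:72319033-72321656, + strand), a factor known to hold myeloid cells and endothelium in a quiescent state, moved the other way. In dMye its lowest, median and highest values were 19.7, 22.6 and 24.5 CPM in dMye_PCN, against 25.3, 26.5 and 29.6 in dMye_DMSO. FF libraries had 15.5, 14.5 and 14.7 CPM with PCN, against 23.1, 22.9 and 22.8 with DMSO. The groups did not overlap in either genotype, and the 3 FF_PCN libraries were the lowest of all 18. Klf2 fell by 0.27 ± 0.06 on the log2 scale in dMye (SE, adjusted p = 0.012) and by 0.60 ± 0.08 in FF (adjusted p = 2.4e-05). The difference of 0.33 ± 0.10 between the effects did not pass (adjusted p = 0.10).

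Markers of other cells moved beside Klf2, which lymphocytes and endothelial cells also express. The summed level of 8 B cell markers was 9.12 to 13.2 CPM in FF_PCN, against 20.7 to 25.8 in FF_DMSO. Of the 8, 4 passed the test as lower, where 13.8% of all genes passed. In dMye the same sum was 6.52 to 9.85 CPM with PCN, against 6.29 to 8.74 with DMSO, and no marker passed with edgeR, DESeq2 or limma-voom, although 1 had an unadjusted p under 0.05. The medians of that sum were 7.78 CPM in dMye_PCN and 7.89 CPM in dMye_DMSO. The sums for T and NK cells and for endothelium overlapped between the FF groups, for T and NK cells by a narrow margin. The 7 T and NK cell markers summed to 3.85 to 4.34 CPM in FF_PCN (median 3.93), against 4.32 to 5.17 in FF_DMSO (median 4.44). None of the 6 tested passed with edgeR, DESeq2 or limma-voom, although 2 had an unadjusted p under 0.05. The 7 endothelial markers summed to 168 to 195 CPM in FF_PCN, against 168 to 184 in FF_DMSO. Most of that sum was Vwf, with a median of 147 CPM in FF_PCN and 154 CPM in FF_DMSO. Kdr followed, at 23.5 and 26.3 CPM. The other 5 had medians under 1 CPM in both FF groups, and the defining marker Cldn5 had no count in any library. The part of other cells in the lower Klf2 with PCN was not tested in either genotype.

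Klf4 (chr4:55527143-55532466, - strand), a factor of monocyte differentiation and of the alternatively activated state, changed least. The lowest value, the median and the highest were 81.5, 96.2 and 97.7 CPM in dMye_PCN, against 80.2, 93.5 and 101 in dMye_DMSO. FF libraries had 82.6, 78.2 and 83 CPM with PCN, against 86, 75.8 and 79.1 with DMSO. All 4 groups overlapped. The PCN effect was 0.02 ± 0.05 in dMye (adjusted p = 0.91), with a 95% interval from -0.09 to 0.13, and 0.04 ± 0.07 in FF (adjusted p = 0.80), with an interval from -0.11 to 0.19. The intervals leave out log2 changes as large as those of Klf2 and Klf6 in FF.

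Csrnp1 (chr9:119971163-119984658, - strand) encodes a cysteine- and serine-rich nuclear protein that binds DNA and was first described as induced by AXIN1. An antisense gene, 1700019L13Rik, overlaps its exons, and without strand information reads of the overlap cannot be assigned to one of them. The lowest, median and highest values were 21.1, 21.8 and 24.8 CPM in dMye_PCN, against 16.2, 17.4 and 19.1 in dMye_DMSO. FF libraries had 26.8, 25.9 and 26.6 CPM with PCN, against 12.1, 14 and 13.2 with DMSO. The 4 groups formed an order without overlap, FF_PCN above dMye_PCN, then dMye_DMSO, then FF_DMSO. The log2 fold change with PCN was 0.36 ± 0.06 in dMye and 1.03 ± 0.08 in FF, and the dMye effect minus the FF effect was -0.67 ± 0.10.

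RefSeq promoters (250 bases before to 50 after a start, GRCm38.p6) were found for 8 of the 10 genes, and the table used held none for Gem and Ier2. On both strands the first 250 bases were searched for TGANTCA, the AP-1 element, for TGACGTCA, the full cyclic AMP response element, for its core TGACG, which each full element also holds, and for the CArG box bound by SRF. TGANTCA lay in 6.75% of 32851 promoters and, among the 8 genes, in Csrnp1, at 102 to 96 and at 14 to 8 bases before 1 of its 4 starts. TGACGTCA lay in 1.55% of promoters and, among the 8, in Btg2, 166 to 159 bases before the start. TGACG lay in 17.8% of promoters and in 7 of the 11 promoters of the 8 genes, which were those of Btg2, Csrnp1, Klf2 and Klf4. All shares are per promoter, and Csrnp1 has 4 of the 11. The CArG box lay in 1.47% of promoters and, among the 8, in Zfp36, as CCATAAAAGG at 58 to 49 bases before the start. The stretch before an internal start of Csrnp1, which lies within the span of the gene, and the stretch upstream of Klf2 are shown where they lie outside annotated exons, 1 gene from each direction of change. Capitals mark matches to TGANTCA and to TGACG on either strand. Csrnp1 is printed from chr9:119983024-119983145 (- strand) and Klf2 from chr8:72318812-72319032 (+ strand).
Csrnp1: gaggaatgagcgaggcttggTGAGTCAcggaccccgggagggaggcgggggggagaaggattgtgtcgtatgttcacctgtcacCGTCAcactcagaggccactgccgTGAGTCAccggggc
Klf2: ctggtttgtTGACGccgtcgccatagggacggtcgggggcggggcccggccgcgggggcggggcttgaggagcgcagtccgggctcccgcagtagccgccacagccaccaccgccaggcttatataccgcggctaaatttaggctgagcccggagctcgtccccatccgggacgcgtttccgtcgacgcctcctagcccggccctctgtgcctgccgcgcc
A match describes letters in these windows and is neither a shown binding site nor a cause.

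Zfp36 (chr7:28376784-28380253, - strand) encodes tristetraprolin, which binds UAUUUAU in 3′ UTRs and recruits the enzymes that remove poly(A) tails. Lowest, median and highest values were 37, 41 and 42.7 CPM in dMye_PCN, against 38.6, 41.4 and 44.7 in dMye_DMSO. FF libraries had 47.7, 41.5 and 47 CPM with PCN, against 45.3, 41.5 and 44.5 with DMSO. All 4 groups overlapped. The PCN effect was -0.04 ± 0.05 in dMye (adjusted p = 0.74, 95% interval -0.14 to 0.06) and 0.08 ± 0.07 in FF (adjusted p = 0.54, interval -0.07 to 0.22). The antisense gene Gm44710 overlaps exons of Zfp36, so its reads are uncertain in the same way as those of Csrnp1.

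UAUUUAU occurred in the annotated 3′ UTR (GENCODE M21 transcripts, GRCm38) of 7 of the 10 genes, against 27.5% of 20979 protein-coding genes. Ier3 had 4 copies, Gem and Zfp36 had 3 each, Klf6 had 2, and Csrnp1, Btg2 and Klf2 had 1 each, while Ier2, Ier5 and Klf4 had none. Among genes with a 3′ UTR of like length, 0.71% held as many as Ier3, 1.24% as many as Zfp36 and 2.04% as many as Gem. For the other 4 with copies that share was higher, at 18.8% for Klf2, 23.4% for Klf6, 26.6% for Csrnp1 and 43.4% for Btg2. Genes with copies were found among those that were higher with PCN (Klf6, Ier3), lower (Klf2) and not called (Zfp36, Btg2). The 3 genes with most copies are shown at their first site, with UAUUUAU in capitals, Ier3, Zfp36 and Gem from chr17:35822485-35822514 (+), chr7:28376958-28376987 (-) and chr4:11713930-11713959 (+).
Ier3: uaauuaaUAUUUAUgUAUUUAUguauaucc
Zfp36: ccuuUAUUUAUgacgacuuUAUUUAUugua
Gem: ucaagagucagUAUUUAUucauaggaaaag

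Btg2 (chr1:134075170-134079120, - strand) is an antiproliferative gene whose protein binds the CCR4-NOT deadenylase, and it is a known target of p53. Its lowest, median and highest values were 19.4, 21.7 and 23.4 CPM in dMye_PCN, against 15.7, 20.8 and 21.2 in dMye_DMSO. FF libraries had 19.3, 20.2 and 20.1 CPM with PCN, against 16.8, 16.3 and 17.7 with DMSO. The FF groups did not overlap, as in 33.4% of all genes tested, and the dMye groups did. The PCN effect was 0.10 ± 0.07 in dMye (adjusted p = 0.54) and 0.25 ± 0.10 in FF (adjusted p = 0.11), so neither passed.

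Ier2, Ier3 and Ier5 share a name and not a family, since Ier3 is unrelated in sequence to the other two. Ier2 (chr8:84661331-84662852, - strand), a nuclear protein of the early growth factor response, had a lowest value of 15.6 CPM, a median of 16.5 and a highest value of 17.3 in dMye_PCN, against 17.4, 19.1 and 21.1 in dMye_DMSO. In FF its libraries read 12.7, 10.3 and 11.9 CPM with PCN, against 20.6, 16.3 and 16.8 with DMSO. The PCN libraries lay below the DMSO libraries in both genotypes, in dMye by a narrow margin. The effect of -0.59 ± 0.10 in FF passed (SE, adjusted p = 4e-04) and that of -0.23 ± 0.07 in dMye did not (adjusted p = 0.11). Libraries of the dMye groups did not overlap in 2.33% of all genes tested. The difference between the effects, 0.37 ± 0.13, did not pass (adjusted p = 0.17).

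Ier3 (chr17:35821684-35822923, + strand), also called IEX-1, is a survival regulator and feedback gene of the NF-kB and ERK pathways. Its lowest, median and highest values were 27.3, 28.1 and 30.3 CPM in dMye_PCN, against 20.4, 26.7 and 28.1 in dMye_DMSO. FF libraries had 25.5, 24.4 and 28.2 CPM with PCN, against 19.4, 16.2 and 15.6 with DMSO. The 3 FF_DMSO libraries were the lowest of all 18, and the other 3 groups overlapped one another. Ier3 was higher by 0.63 ± 0.10 in FF with PCN (SE, adjusted p = 0.00022), while the effect in dMye was 0.14 ± 0.07 (adjusted p = 0.38). The dMye effect minus the FF effect was -0.50 ± 0.13, just outside the threshold (adjusted p = 0.053). That difference passed in 3 of 26 alternatives. Its adjusted p ran from 0.011 without dMye_DMSO 1, the low library at 20.4 CPM, to 0.18 without FF_DMSO 3.

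Ier5 (chr1:155096361-155099636, - strand) encodes a protein known to promote the activity of heat shock factor 1 and to be induced by p53. The dMye libraries ran from 117 CPM over a median of 125 to 132 with PCN, against 118, 122 and 127 with DMSO. FF libraries had 148, 154 and 166 CPM with PCN, against 131, 119 and 128 with DMSO. Both dMye groups overlapped FF_DMSO, and FF_PCN lay above all of them. The effect was 0.02 ± 0.04 in dMye (adjusted p = 0.87, 95% interval -0.07 to 0.11) and 0.33 ± 0.06 in FF (adjusted p = 0.00084). Ier5 was the 1 gene of the 8 whose PCN effect differed between genotypes, by -0.31 ± 0.08 (adjusted p = 0.043), where 1.42% of all genes passed. The call lay close to the threshold and was lost without any 1 of 13 libraries, all 6 of FF, dMye_DMSO 2, 3 and 4, and dMye_PCN 1, 2, 4 and 6, with adjusted p up to 0.15.

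Gem (chr4:11704457-11714752, + strand) encodes a small GTPase of the RGK family that inhibits voltage-gated calcium channels. Across dMye libraries the lowest, median and highest values were 4.52, 5.69 and 7.38 CPM in dMye_PCN, against 4.01, 4.25 and 5.41 in dMye_DMSO. FF libraries had 8.12, 9.91 and 7.97 CPM with PCN, against 3.6, 4.26 and 3.93 with DMSO. The dMye groups overlapped and FF_PCN lay above all other libraries. The log2 fold change was 0.39 ± 0.13 in dMye and 1.16 ± 0.18 in FF, and the dMye effect minus the FF effect was -0.77 ± 0.22. Gem rested on 89 to 250 counts per library and had the largest biological coefficient of variation of the 10, at 13.7%, against 5.76% to 8.35% for the others and a median of 9.56% over all genes tested.

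**Figure D2:**
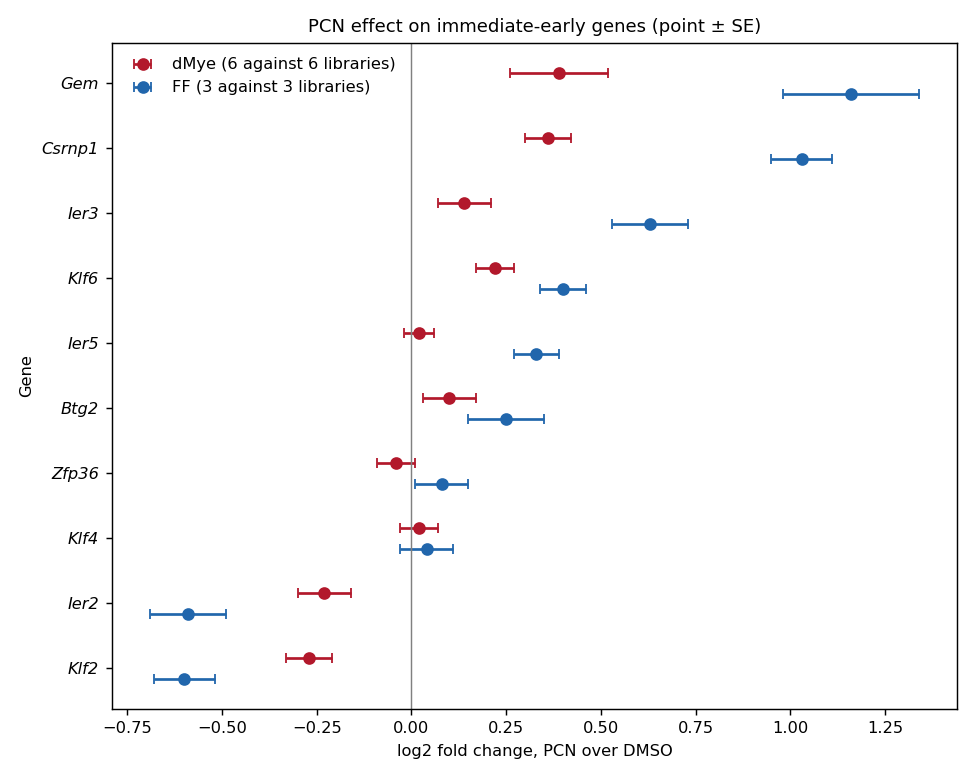
Log2 fold change of PCN over DMSO (x axis) for each of the 10 genes, as a point with its SE, in dMye (6 against 6 libraries) and in FF (3 against 3). The FF point lies farther from 0 than the dMye point for 10 of 10 genes, from 1.16 for Gem to -0.60 for Klf2.

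The fitted PCN effect was larger in size in FF than in dMye for 10 of the 10 genes. The same held for 70.7% of all genes tested and for 99.8% of the genes called in FF, so this count does not set the 10 genes apart. FF_PCN was the highest group mean for Gem, Csrnp1, Ier5, Zfp36 and Klf6 and the lowest for Ier2 and Klf2. For Ier3, Btg2 and Klf4 the extremes were dMye_PCN as the highest group and FF_DMSO as the lowest.

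The sums of macrophage and neutrophil markers were lower with PCN in both genotypes, without overlap of the libraries. The 10 macrophage markers summed to 7370 to 7880 CPM in FF_PCN, against 10300 to 11100 in FF_DMSO, and 6 of the 10 passed as lower. In dMye they summed to 6390 to 6960 CPM with PCN, against 6970 to 8610 with DMSO, and 1 passed as lower. Most of the FF shift lay in Lyz2, the lysozyme gene, with a median of 4510 CPM in FF_PCN and 7130 CPM in FF_DMSO. Cd68, a lysosomal marker of macrophages, did not pass in either genotype, with medians of 2470 CPM in FF_PCN and 2530 CPM in FF_DMSO, and neither did Cd14. The 8 neutrophil markers summed to 20.5 to 23.6 CPM in FF_PCN, against 31.8 to 35.4 in FF_DMSO, and 1 of the 4 tested passed as lower. That 1 was Mmp8, a collagenase of neutrophil granules, which carried most of the sum at a median of 18.4 CPM in FF_PCN and 30.4 CPM in FF_DMSO, while the defining marker Ly6g had a median of 0 in every group. In dMye the neutrophil markers summed to 12.2 to 14.6 CPM with PCN, against 14.9 to 17 with DMSO, with none of the 4 called by edgeR, DESeq2 or limma-voom and 1 at an unadjusted p under 0.05. The 11 mesothelial and fibroblast markers summed to 154 to 169 CPM in FF_PCN, against 190 to 192 in FF_DMSO, and 1 passed as lower. In dMye they summed to 643 to 755 CPM with PCN, against 642 to 826 with DMSO. None passed there with edgeR, DESeq2 or limma-voom, although 3 had an unadjusted p under 0.05. Over all genes tested, 13.8% passed with PCN in FF and 2.08% in dMye. The part of these shifts in the PCN effects was not tested.

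Between genotypes under DMSO, Ier3 and Klf2 were higher in dMye_DMSO than in FF_DMSO. These were 2 of the 8 tested genes, both higher, where 21.8% of all genes passed. Ier3 differed by 0.57 ± 0.09 (log2, SE, adjusted p = 6.9e-05), with all 6 dMye libraries above all 3 FF libraries. The difference in Klf2 was 0.20 ± 0.07 (adjusted p = 0.038), also without overlap, as in 23.6% of all genes. It passed in 11 of 26 alternatives, with adjusted p up to 0.16, and was lost without any 1 of the 6 FF libraries, dMye_DMSO 3, 4, 5 or 6, or dMye_PCN 1. Btg2, at 0.20 ± 0.09, did not pass (adjusted p = 0.12), and passed in 1 of 26 alternatives, without dMye_DMSO 1 (adjusted p = 0.020). Klf4, at 0.17 ± 0.06, did not pass either (adjusted p = 0.070), and passed in 3 of 26 alternatives, under upper-quartile scaling (adjusted p = 0.025) and without dMye_DMSO 5 or dMye_PCN 5 (adjusted p = 0.043 in each).

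Under PCN, 5 of the 8 tested genes differed between dMye_PCN and FF_PCN, where 27.6% of all genes passed. Klf2 was higher by 0.53 ± 0.07 (log2, SE, adjusted p = 5.9e-06) and Ier2 by 0.45 ± 0.09 (adjusted p = 0.00072) in dMye_PCN. Ier5, at -0.37 ± 0.05 (adjusted p = 1.2e-05), Klf6, at -0.30 ± 0.05 (adjusted p = 2e-04), and Zfp36, at -0.21 ± 0.06 (adjusted p = 0.0091), were lower. For Klf2, Ier2, Ier5 and Klf6 the libraries of the genotypes did not overlap, as in 26.7% of all genes tested. For Zfp36 they did, and its call was lost without FF_PCN 1 (adjusted p = 0.073) or FF_PCN 3 (adjusted p = 0.064). Klf4 did not pass (adjusted p = 0.10), and passed in 2 of 26 alternatives, under upper-quartile scaling (adjusted p = 0.025) and without dMye_PCN 5. Ier3, which was higher in dMye under DMSO, differed by 0.08 ± 0.09 under PCN (adjusted p = 0.57). Gem and Csrnp1 had log2 differences of -0.63 ± 0.15 and -0.30 ± 0.07 under PCN, against 0.15 ± 0.16 and 0.37 ± 0.07 under DMSO. These comparisons use the same libraries as the PCN comparisons and are not independent of them.

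**Figure D3:**
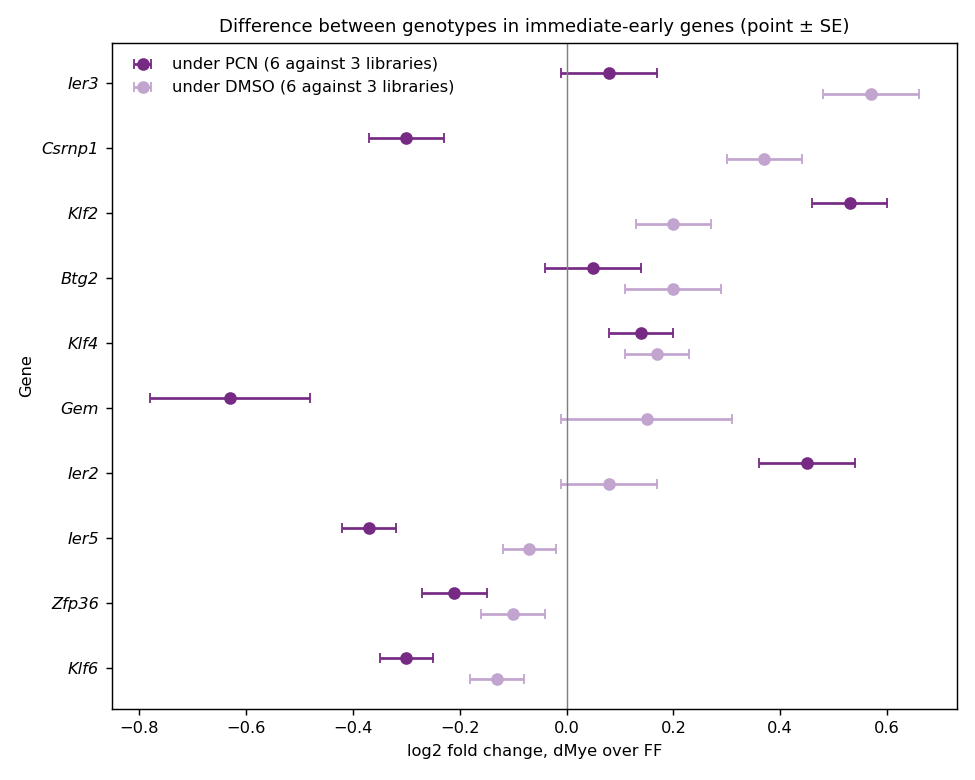
Log2 fold change of dMye over FF (x axis) for each of the 10 genes, as a point with its SE, under PCN and under DMSO (6 against 3 libraries each). Csrnp1 and Gem lie on opposite sides of 0 under the 2 agents, and Ier3 lies at 0.57 under DMSO and at 0.08 under PCN.

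Beside the genotype differences, 11 of 11 mesothelial and fibroblast markers were higher in dMye under each agent. Their sum was 643 to 755 CPM in dMye_PCN and 154 to 169 CPM in FF_PCN, and 642 to 826 CPM in dMye_DMSO and 190 to 192 CPM in FF_DMSO. Stromal cells express several of the 10 genes, among them Klf2, Klf4, Klf6 and Ier3, and their part in the genotype differences was not tested. B cell markers were lower in dMye. Under DMSO they summed to 6.29 to 8.74 CPM in dMye_DMSO and 20.7 to 25.8 CPM in FF_DMSO, and 7 of the 8 passed as lower. Under PCN the sums were 6.52 to 9.85 CPM in dMye_PCN and 9.12 to 13.2 CPM in FF_PCN, and 3 passed as lower. B cells also express Klf2, and their part in its difference between genotypes was not tested. Of the 5 endothelial markers tested, 2 were higher in dMye under each agent. Of the 6 T and NK cell markers tested, 2 were higher and 1 lower in dMye under PCN, and 2 were lower under DMSO. Of the 10 macrophage markers, 6 were higher and 1 lower in dMye under PCN, and 2 were higher and 2 lower under DMSO. Their sum was lower in dMye, at 6390 to 6960 CPM in dMye_PCN and 7370 to 7880 CPM in FF_PCN. Under DMSO it was 6970 to 8610 CPM in dMye_DMSO and 10300 to 11100 CPM in FF_DMSO. Lyz2 had medians of 3260 CPM in dMye_PCN, 4510 CPM in FF_PCN, 3830 CPM in dMye_DMSO and 7130 CPM in FF_DMSO. Of the 4 neutrophil markers tested, 1 was lower under PCN and 2 under DMSO. The mast cell markers summed to 6.51 to 12 CPM in dMye_PCN and 4.62 to 7.72 CPM in FF_PCN, with 1 of 4 higher, and to 7.96 to 10.4 CPM in dMye_DMSO and 6.6 to 8.8 CPM in FF_DMSO, with none passing by edgeR, DESeq2 or limma-voom or at an unadjusted p under 0.05. Beside each of these marker counts, 27.6% of all genes tested passed under PCN and 21.8% under DMSO. The part of the B cells, endothelial cells, T and NK cells, macrophages, neutrophils and mast cells was not tested either.

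Other members of the same gene families were counted in a list of 27 relatives, of which 20 were tested. With PCN in FF, 4 were higher and 3 lower, where 13.8% of all genes passed in either direction, with a median log2 change of 0.10, against 0.01 over all genes tested. Btg1, the closest relative of Btg2, was 650 ± 5.06 CPM in FF_PCN and 468 ± 8.40 CPM in FF_DMSO (mean ± SD, n = 3 each), a log2 change of 0.50 ± 0.06 (adjusted p = 4e-06). Btg3, another antiproliferative protein, rose by 0.55 ± 0.07 (adjusted p = 1.2e-05), while Klf10, a target of TGF-beta, fell by 0.33 ± 0.07 (adjusted p = 0.0018). The relatives of Zfp36 went apart: Zfp36l1 was 13.5 ± 0.165 CPM in FF_PCN and 18.3 ± 1.49 in FF_DMSO and passed as lower, and Zfp36l2 was 709 ± 41.2 CPM in FF_PCN and 611 ± 17.5 in FF_DMSO and passed as higher. In dMye, where 2.08% of all genes passed, 1 relative was higher (Btg1, 0.22 ± 0.04, adjusted p = 0.0035) and 1 lower (Klf10, -0.23 ± 0.05, adjusted p = 0.013), with a median of 0.02, against -0.01 over all genes. The effect of 1 relative, Btg3, differed between genotypes, by -0.37 ± 0.09 (adjusted p = 0.033), where 1.42% of all genes passed.

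Of 53 immediate-early genes outside the 10, a list that holds the AP-1 and EGR factors, 52 were tested. With PCN in FF, 19 were higher and 2 lower, against the 13.8% of all genes that passed, with a median of 0.21. Ppp1r15a, the GADD34 subunit that reverses the stress phosphorylation of eIF2α, was higher by 0.86 ± 0.06 (adjusted p = 3.6e-09). Dusp1, a MAP kinase phosphatase, followed at 0.68 ± 0.06 (adjusted p = 9e-08), and Atf3, a stress-induced repressor, at 0.52 ± 0.06 (adjusted p = 2.4e-06). In dMye, 6 passed, where 2.08% of all genes did, all of them higher, with a median of 0.04: Ppp1r15a at 0.34 ± 0.04 (adjusted p = 5.2e-05), Atf3 at 0.20 ± 0.04 (adjusted p = 0.012) and Myc at 0.25 ± 0.05 (adjusted p = 0.012) led by p-value. By the test of the difference, the dMye effect lay below the FF effect for 7 of the 52, where 1.42% of all genes passed. Among the 7 was Ppp1r15a, at -0.52 ± 0.07 (adjusted p = 0.00044). Between genotypes, 15 were higher and 6 lower in dMye under DMSO (21.8% of all genes passed), and 11 higher and 14 lower under PCN (27.6% of all genes).

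Zfp36 itself did not pass with PCN, and the mRNAs it is known to bind and destabilise were counted beside it. Of 18 such mRNAs, a list that includes Zfp36 and Ier3 and shares genes with the immediate-early list, 14 were tested. With PCN in FF, 8 passed, beside 13.8% of all genes, all of them higher, with a median of 0.41, led by Dusp1, the chemokine gene Ccl3 (0.72 ± 0.07, adjusted p = 5e-07) and the kinase gene Plk2 (0.45 ± 0.06, adjusted p = 8.3e-06). In dMye, 3 passed, beside 2.08% of all genes, all of them higher, with a median of 0.15: Dusp1 (0.20 ± 0.04, adjusted p = 0.015), the cyclooxygenase gene Ptgs2 (0.34 ± 0.07, adjusted p = 0.016) and Ccl3 (0.20 ± 0.05, adjusted p = 0.032). Tnf, the classical target of ZFP36, was 14.6 ± 1.24 CPM in dMye_PCN, 13 ± 0.182 in dMye_DMSO, 14.5 ± 1.00 in FF_PCN and 11.2 ± 0.716 in FF_DMSO. It passed as higher with PCN in FF (0.39 ± 0.09, adjusted p = 0.0067) and not in dMye (0.17 ± 0.07, adjusted p = 0.22). Under DMSO 7 of the 14 passed, beside 21.8% of all genes, all of them higher in dMye than in FF, led by Ptgs2, at 21.1 ± 2.19 CPM in dMye_DMSO and 3.30 ± 0.213 CPM in FF_DMSO. Under PCN 5 were higher and 3 lower in dMye, beside 27.6% of all genes. The median difference was 0.47 under DMSO and 0.16 under PCN.

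**Figure D4:**
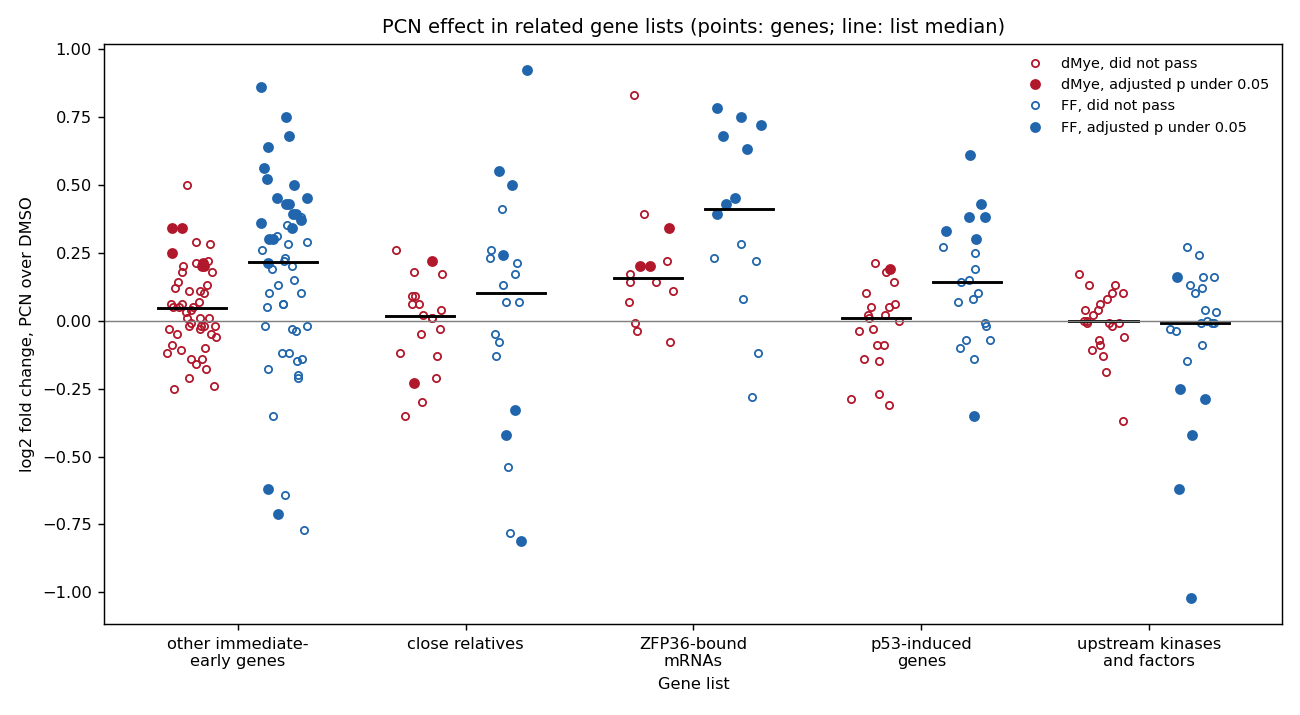
Log2 fold change of PCN over DMSO (y axis) for the tested genes of 5 lists (x axis) in dMye and in FF, with 1 point per gene, filled where the adjusted p was under 0.05, and a line at the list median. The FF points of the immediate-early list centre on 0.21 and those of the ZFP36-bound list on 0.41, above their dMye medians of 0.04 and 0.15.

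Btg2 and Ier5 belong to a list of 21 genes induced by p53, of which 21 were tested. With PCN in FF, 6 were higher and 1 lower, with a median of 0.14, where 13.8% of all genes passed. Mdm2, the p53 ubiquitin ligase, was higher by 0.43 ± 0.06 (adjusted p = 3.3e-05), the BH3-only gene Pmaip1 by 0.61 ± 0.09 (adjusted p = 3.5e-05) and the cell cycle inhibitor Cdkn1a by 0.38 ± 0.05 (adjusted p = 3.8e-05). In dMye, where 2.08% of all genes passed, 1 gene was higher, Mdm2, by 0.19 ± 0.04 (adjusted p = 0.019). The heat shock genes, whose factor HSF1 is promoted by Ier5 protein, were counted beside it: of 12, the same gene alone passed with PCN in each genotype, as lower. It was Hspa8, a constitutive chaperone with near-identical copies that make its counts less certain, at -0.69 ± 0.06 in FF (adjusted p = 5.9e-08) and -0.29 ± 0.04 in dMye (adjusted p = 0.00032).

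Of 7 genes that KLF2 is known to raise in endothelium or T cells, 6 were tested. The 1 that passed with PCN was Thbd, which encodes the anticoagulant receptor thrombomodulin. Over all genes tested, 13.8% passed in FF and 2.08% in dMye. Thbd was 29.2 ± 2.26 CPM in dMye_PCN and 37.2 ± 2.33 in dMye_DMSO (SD, n = 6 each), and 23.1 ± 3.90 in FF_PCN and 42.3 ± 1.92 in FF_DMSO (n = 3 each). It fell by 0.35 ± 0.07 in dMye (SE, adjusted p = 0.011) and by 0.85 ± 0.10 in FF (adjusted p = 6.6e-06). The effects differed by 0.50 ± 0.12 (adjusted p = 0.045), where 1.42% of all genes passed. Of 25 kinases and transcription factors that act upstream of immediate-early genes, 23 were tested. With PCN in FF, 1 was higher and 5 lower, against 13.8% of all genes passing, among them the ERK-activated kinase Rps6ka1 (-0.62 ± 0.08, adjusted p = 8.1e-06), the SRF partner Elk3 (-0.42 ± 0.08, adjusted p = 0.00056) and Mef2c (-1.02 ± 0.20, adjusted p = 0.0012). In dMye none of the 23 passed with edgeR or limma-voom and 1 with DESeq2, while 5 had an unadjusted p under 0.05.

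The genes whose profile over the 18 libraries lay nearest to a member were ranked by the root mean square difference of centred log2 CPM. Csrnp1 was nearest to Ppp1r15a (0.0944), Ccl3 (0.137) and Smim3 (0.147), against a spread of 0.34 of Csrnp1 itself. Klf2 was nearest to Glul (0.0939), Timp2 (0.0989) and Ncf1 (0.0990), against a spread of 0.277. Ier3 was nearest to Nupr1 (0.118), Tsr2 (0.120) and Btg3, the relative of Btg2 (0.130). Gem had more distant neighbours, Gde1 (0.207), Tes (0.226) and Tmem140 (0.226), against a spread of 0.433. For Zfp36 and Klf4, whose own spreads were 0.101 and 0.11, the nearest genes were Tspan14 (0.0528) and Emilin2 (0.0702). The measure describes likeness over libraries of 4 groups and says nothing of shared control.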

How the data were processed

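The authors deposited expected counts, which are estimates of reads per gene and can be fractions, for 18 libraries. The genome build was mm10, per the submitters' processing notes. Which aligner, quantifier and annotation were used, and whether strand was, is not given in the sources used here. Genes that overlap on opposite strands therefore cannot be separated. The table held 21831 symbols, of which 3287 were at 0 in every library after rounding, and no column was left unused.

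Expected counts were rounded to whole numbers. Totals ran from 21993687 to 30228032 per library, so that 3 counts stand for 0.0992 to 0.136 CPM. Such limits cover counting error only. filterByExpr kept 13409 genes. One edgeR 4.0.16 quasi-likelihood fit (R 4.3.3, robust, TMM scaling, no covariates) of the 4 groups gave 5 contrasts, called at a Benjamini-Hochberg adjusted p under 0.05 over all genes tested. The SE of a log2 fold change is its size over the root of the F statistic, and its 95% interval uses the t quantile at the test's degrees of freedom. Levels are CPM of unscaled library totals. The fit was run on simulated data with known changes in FF_PCN, drawn with the fit's own estimates of spread. Such data cannot show whether that spread suits the real libraries. Alternatives were RLE and upper-quartile scaling, library totals alone, no filter, 1 CPM in 6 libraries, DESeq2 1.42.0, limma-voom (limma 3.58.1), fits of 1 genotype alone, each library left out, and dMye_DMSO 5 and 6 left out together.

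The 10 genes and the gene lists were chosen with earlier results of these data known. All 10 genes are described. Of each other list up to 3 called genes per contrast are named by smallest p, and relatives and ZFP36-bound mRNAs may also be given by level. Nearest genes are the 3 of smallest root mean square difference of TMM-scaled log2 CPM (prior count 0.5). Group sizes of 3 and 6 limit precision. A further allele that all 4 groups carry is not reported here.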

Additional observations from a re-analysis of the deposited data

Results flagged for a closer look

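In groups of 6 libraries, 2 of the 20 sets of values held a library far from the rest, where chance gives about 1 in 20. Both were dMye_DMSO 1, with 20.4 CPM for Ier3, where the next value was 25.8, and 15.7 CPM for Btg2, where the next was 19.5.

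Among the genes the naming rule allows, beside Gem and Csrnp1, the PCN effect differed between genotypes for 12 by the test of the difference. Over all genes tested 1.42% passed, and the rule names called genes alone, so 12 cannot be read as a share. As dMye effect minus FF effect on the log2 scale, it was smaller in dMye for Ier5 (-0.31), Btg3 (-0.37), Pim1 (-0.33), Dusp1 (-0.48), Ppp1r15a (-0.52), Ccl3 (-0.52), Plk2 (-0.31), Pmaip1 (-0.43) and Bbc3 (-0.42). For genes that fell in FF the difference was positive, at 0.44 for Rps6ka1, 0.40 for Hspa8 and 0.50 for Thbd.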

How the results depend on the processing

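The counts of tested genes called with PCN in dMye (2) and in FF (5), and of dMye against FF under PCN (5), stayed within 1.5 times under every alternative run, and Klf2 and Klf6 in both genotypes and Ier2, Ier3 and Ier5 in FF passed in 27 of 27. The difference between the PCN effects, called for 1 gene, gave 0 under upper-quartile scaling and without a filter, 2 with 1 CPM in 6 libraries, 3 with DESeq2 (Ier3, Ier5 and Klf2), and 0 to 2 when 1 library was left out. dMye against FF under DMSO, called for 2 genes, gave 1 under RLE scaling, without a filter, with DESeq2 and without dMye_DMSO 5 and 6 together, and 1 to 3 when 1 library was left out. The Klf4 effect in dMye turned to -0.01 without dMye_DMSO 4 or 5, and its difference between genotypes turned to 0.01 without a filter, without FF_PCN 3 or without dMye_PCN 5, and to 0.02 without FF_DMSO 2 or dMye_DMSO 3. With 1 library left out the Klf4 effect in dMye ran from -0.01 to 0.05 and its difference from -0.06 to 0.02, and none of these values passed. Zfp36 under PCN was lost under upper-quartile scaling (adjusted p = 0.058) and with library totals alone (adjusted p = 0.066), and Ier2 with PCN in dMye passed with DESeq2. Among the lists, calls with PCN in dMye numbered 5 with DESeq2 against 3 for ZFP36-bound mRNAs and 3 against 1 for p53-induced genes, whose differing effects numbered 1 under upper-quartile scaling against 3. The cause was not tested. Depth was not limiting for Klf6, with at least 9642 counts per library, and was lowest for Gem, with 89. No paired analysis was possible because the labels carry no replicate numbers.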
